A study of Homo sapiens with 6 samples.

Results

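The genes described here are 10 genes by which granulosa cells of the ovarian follicle are usually recognised: *FOXL2*, *FSHR*, *CYP19A1*, *AMH*, *AMHR2*, *INHA*, *INHBA*, *NR5A1*, *STAR* and *WT1*. They were taken by symbol from the deposited table, which holds 19899 genes, and all 10 have a row in it. The RNA came from COV434, an established ovarian line that was long used as a granulosa cell line. The study treats it as a model of SCCOHT, the hypercalcemic small cell tumour of the ovary, whose cells lack the BRG1 protein. *SMARCA4* encodes BRG1, the motor subunit of the SWI/SNF complex, which moves nucleosomes. The comparison asks what changes when BRG1 is put back.

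Parental COV434 cells received either a control plasmid (Control, n = 3) or the PBJ5-BRG1 plasmid (BRG1, n = 3). The paper gives the control plasmid as pCMV-neo or pCDNA3-neo. Every sample also received pBABE-puro, which carries puromycin resistance, and all samples were selected with puromycin at 2 to 3 µg/ml for 3 days, starting 24 hours after transfection. The samples are biological replicates of 1 cell line, numbered 1 to 3 in each group, harvested as bulk pellets. In bulk RNA, fewer cells that express a gene and less RNA per cell cannot be told apart. The libraries held 29699741 to 63613710 estimated counts, with BRG1 sample 3 the shallowest. *SMARCA4* (chromosome 19, 10960932 to 11079426, plus strand) had normalised counts of 1439, 1676 and 1538 in Control samples 1 to 3 and 108655, 79075 and 78589 in BRG1 samples 1 to 3, with transcripts of the plasmid included. Its log2 fold change was 5.84 (SE 0.18, DESeq2 adjusted p = 5.4e-216), and the libraries match their labels.

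Granulosa cells surround the oocyte. Follicle-stimulating hormone, acting through its receptor FSHR, leads them to make aromatase (CYP19A1), which turns androgens into estrogens, and the inhibin subunits. FOXL2 maintains the granulosa fate in the adult ovary, and NR5A1 (SF-1) and WT1 are transcription factors of the developing gonad. Anti-Müllerian hormone (AMH) is secreted by granulosa cells of small follicles and signals through AMHR2. The INHA protein pairs with an INHBA or INHBB chain to form inhibin, while pairs of beta chains form activin, which has the opposite effect on the pituitary. STAR carries cholesterol into mitochondria, where steroid synthesis starts.

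*CYP19A1* and *INHBA* are the genes of this set that rose, so the sequence before their starts is shown first. RefSeq (GRCh38.p14) lists several starts for some genes, and a window of 250 bases before to 50 bases after each start was available for 9 of the 10 genes, 18 windows in all. The 250 bases before each start were searched on both strands for TGANTCA (the AP-1 site), CAAGGTCA (a site of NR5A1), TGTTTAC (a forkhead site) and TGACGTCA (the cAMP response element). Capitals mark a match, and each line gives the stretch around it, 5′ to 3′ on the strand of the gene.

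*CYP19A1*, chr15:51288391-51288420, minus strand, AP-1 match 71 bases before a start: tggagaagctgTGACTCAagtagcagctgt
*CYP19A1*, chr15:51243946-51243975, minus strand, AP-1 match 49 bases before a start: gcatttaatgaTGACTCActctttcctcac
*CYP19A1*, chr15:51243143-51243172, minus strand, NR5A1 site 132 bases before the most downstream start: tgagactctacCAAGGTCAgaaatgctgca
*INHA*, chr2:219572069-219572098, plus strand, AP-1 match 230 bases before the start: gtttgcatgtgTGAGTCAggtcgcttgagg
*WT1*, chr11:32400442-32400471, minus strand, AP-1 match 60 bases before an internal start: ctggtaaaaacTGAGTCAtgaggtgccgac
*INHBA*, chr7:41703091-41703340, minus strand, all 250 bases before the start, no match: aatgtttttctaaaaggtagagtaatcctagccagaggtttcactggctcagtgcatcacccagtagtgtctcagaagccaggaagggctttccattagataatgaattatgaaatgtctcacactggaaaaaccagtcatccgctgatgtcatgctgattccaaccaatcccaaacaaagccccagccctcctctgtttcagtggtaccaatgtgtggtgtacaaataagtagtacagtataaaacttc

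A match was found in 5 of the 18 windows, 3 of them among the 7 windows of *CYP19A1*. Over the upstream 250 bases of all 35116 windows, TGANTCA was found in 6.57%, CAAGGTCA in 1.14%, TGTTTAC in 2.98% and TGACGTCA in 1.65%. The matches are a description of the letters only. *CYP19A1* rose and has AP-1 matches, *INHBA* rose without one, and *INHA* and *WT1* have one and were not called. The deposited values are per gene and do not tell which start was in use.

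The first comparison concerns the levels of the genes in cells without BRG1. To compare genes with each other, the estimated count was scaled to counts per 1000000 counts of the sample (CPM) and divided by the length of the gene's reference transcript, which gives a level in CPM per kilobase. In Control cells *WT1* was far above the others, *AMH* was at a middling level, and *INHA*, *INHBA* and *CYP19A1* were low. *STAR* was at a few counts. *FOXL2*, *FSHR* and *AMHR2* never exceeded 3 estimated counts in a Control sample, and *NR5A1* reached at most 3.21. *FOXL2*, *FSHR*, *AMHR2* and *NR5A1* were at or near 0 in both groups. *WT1*, *AMH*, *INHA*, *INHBA* and *CYP19A1* exceeded 3 counts in every sample. The set thus does not point 1 way, and whether the name granulosa cell fits these cells was not tested.

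**Figure D1:**
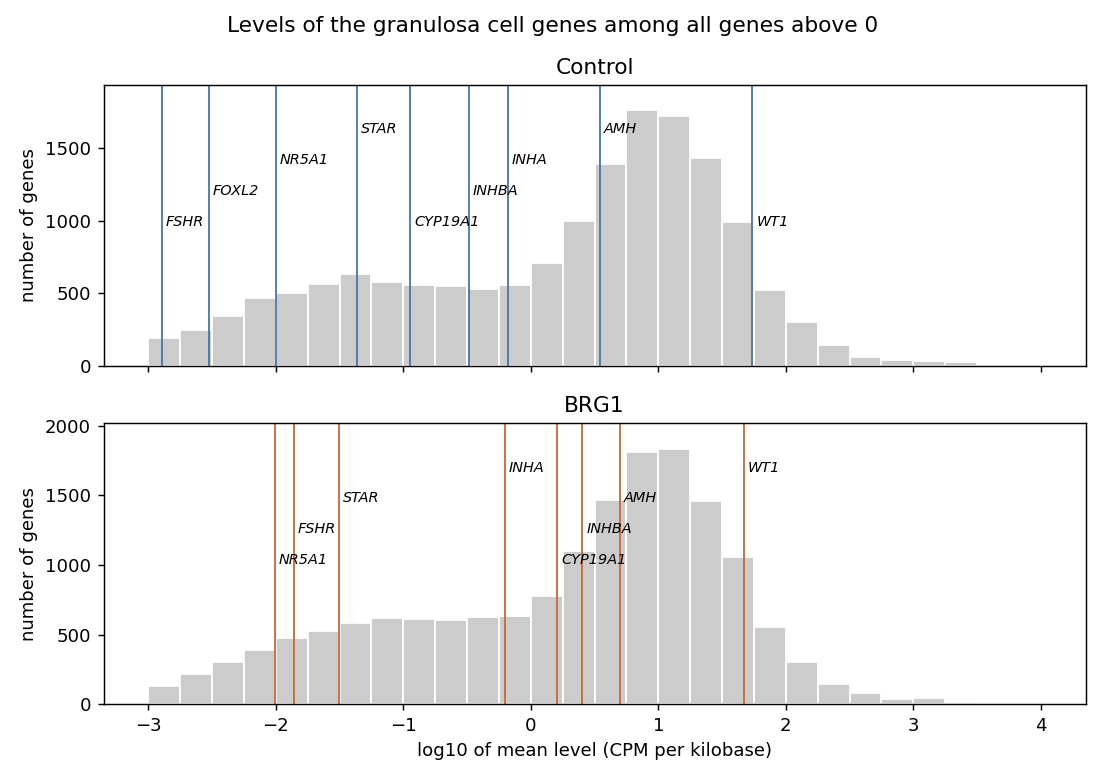
Histograms of the log10 mean level (CPM per kilobase, reference transcript length) of all genes above 0, in Control (upper) and BRG1 (lower), with vertical lines at the granulosa cell genes that had a mean above 0. *WT1* lies in the upper tail in both groups, *AMH* lies on the rising flank, and *CYP19A1* and *INHBA* lie further right in BRG1 than in Control, while *AMHR2* (both groups) and *FOXL2* (BRG1) were at 0 and have no line.

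*WT1* had a level of 54.7 ± 11.2 CPM per kilobase (SD, n = 3) in Control, which ranked 1196 among the 18214 genes with a length (percentile 93.4). *AMH* followed with 3.50 ± 1.08 (percentile 54.8), *INHA* with 0.663 ± 0.083, *INHBA* with 0.325 ± 0.090, *CYP19A1* with 0.113 ± 0.040 and *STAR* with 0.043 ± 0.022. The median level of all these genes was 2.19 in Control. From *WT1* down to *STAR* and *NR5A1*, no gene's 3 Control values overlapped those of the next in the order. Below that, the values of *NR5A1*, *FOXL2*, *FSHR* and *AMHR2* overlapped their neighbours, so their order cannot be given. In BRG1 samples *WT1* (46.7 ± 18.3) and *AMH* (4.99 ± 0.77) kept the upper places. *INHBA* (2.54 ± 1.69) and *CYP19A1* (1.61 ± 0.54) then stood above *INHA* (0.625 ± 0.063), with the values of *INHBA* and *CYP19A1* overlapping each other and both lying above all *INHA* values on this length scale. *STAR*, *FSHR*, *NR5A1*, *FOXL2* and *AMHR2* came last and overlapped their neighbours. With the union of exons as length the order of the means was the same, but *STAR* overlapped *NR5A1* in Control, and in BRG1 samples *INHBA* (0.540 to 2.99) overlapped both *AMH* (2.91 to 3.97) and *INHA* (0.483 to 0.575).

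The second comparison, BRG1 against Control, was tested over all genes with DESeq2. It called 2 of the 10 genes higher, *CYP19A1* and *INHBA*, and 0 lower, with 6 of the 10 tested after its filter on low counts. Over all 15991 genes tested, 11.0% were called higher and 1.84% lower. The quasi-likelihood test of edgeR, which left *STAR* out as too low, also called *CYP19A1* and *INHBA* higher and 0 lower, against 9.57% and 1.02% of the 14246 genes it tested. The labels number the replicates but state no pairing, which was inferred from the likeness of same-numbered samples. With the number as a block DESeq2 called the same 2 genes higher and 0 lower, against 13.4% and 6.62% of all genes. At an unadjusted p under 0.05, DESeq2 had 2 genes of the set higher and 0 lower. The share of all genes at that threshold was not counted, so these numbers have no background to be read against. Among the 6 genes tested, all 3 BRG1 values lay above all 3 Control values for 2, *CYP19A1* and *INHBA*, and for 0 wholly below. Over all genes tested, 16.7% lay wholly above and 9.92% wholly below.

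**Figure D2:**
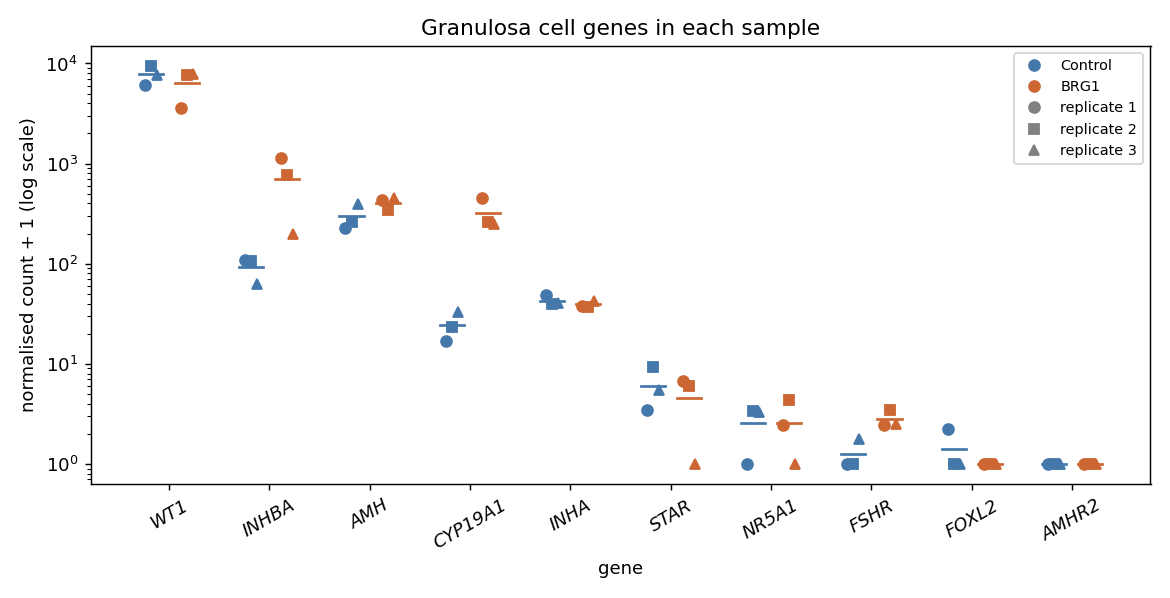
Normalised count plus 1 (log axis) of the 10 genes in each of the 6 samples, with Control in blue, BRG1 in orange, the marker shape giving the replicate number and the bar the group mean. *CYP19A1* and *INHBA* separate by group, *WT1*, *AMH*, *INHA* and *STAR* overlap, and *NR5A1*, *FSHR*, *FOXL2* and *AMHR2* sit at or near 0.

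The transcription factors are taken first. *FOXL2* (chromosome 3, 138944224 to 138947137, minus strand), the forkhead factor of the granulosa lineage, had 1.00 estimated count in Control sample 1 and 0 in the other 5 samples. A sample in which a gene is at 0 allows up to 3 counts, which in these libraries is 0.0472 to 0.101 CPM, counting error only. *FOXL2NB*, which lies 80 bases from *FOXL2* on the opposite strand, was near 0 as well (mean normalised count 2.08 ± 1.25 in Control). *NR5A1* (chromosome 9, 124481236 to 124507420, minus strand) had 0, 1.61 and 3.21 estimated counts in Control and 1.61, 3.54 and 0 in BRG1. Both groups held a sample at 0, and no change was detectable at this depth.

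*WT1* (chromosome 11, 32387775 to 32435564, minus strand), the zinc finger factor of gonad and kidney development, was the only abundant gene of the set. Its normalised counts were 6086, 9466 and 7746 in Control and 3592, 7650 and 7887 in BRG1. BRG1 sample 1 was the lowest of the 6, the other 2 BRG1 samples lay within the Control range, and the groups overlapped. The log2 fold change was -0.28 (SE 0.32, 95% interval -0.91 to 0.34, DESeq2 adjusted p = 0.737), and without BRG1 sample 1 it was 0.0021. *WT1* was thus not called, and the interval leaves room for a fall by 0.91 or a rise by 0.34 on the log2 scale.

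Among the receptors, *FSHR* (chromosome 2, 48962157 to 49154527, minus strand), through which follicle-stimulating hormone acts, had 0, 0 and 0.65 estimated counts in Control and 1.94, 3.44 and 0.65 in BRG1. Only BRG1 sample 2 exceeded 3 counts. Divided by size factors, the values were 0, 0 and 0.757 in Control and 1.45, 2.49 and 1.49 in BRG1, which do not overlap but are single reads. DESeq2 gave it no adjusted p, and no fold is given because both groups were at this floor after rounding. *AMHR2* (chromosome 12, 53423855 to 53431672, plus strand), the receptor that binds AMH, had 0 in all 6 samples. RNA for the hormone was thus found in every sample, and RNA for its receptor in none at this depth.

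*AMH* (chromosome 19, 2249309 to 2252073, plus strand) had normalised counts of 226.6, 261.5 and 398.2 in Control and 427.2, 340.6 and 455.2 in BRG1. Within each replicate number the BRG1 sample was the higher, by 1.89, 1.30 and 1.14 times, but Control sample 3 lay above BRG1 sample 2 and the groups overlapped. The log2 fold change was 0.46 (SE 0.28, 95% interval -0.08 to 1.00, DESeq2 adjusted p = 0.373, edgeR adjusted p = 0.406). Without Control sample 3 it was 0.74 with a DESeq2 adjusted p of 0.0371, so that library alone decides the call. *SF3A2*, a splicing factor gene that ends 654 bases before *AMH* on the same strand, was abundant and level, with mean normalised counts of 2927 and 2952 in Control and BRG1 (DESeq2 adjusted p = 0.979). Its exons share no base with those of *AMH* in the annotation, and whether reads running past its end reach *AMH* was not tested. *JSRP1*, on the opposite strand, lies nearer to *AMH*, at 179 bases, and also shares no exon base with it. Its part was not tested either.

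Of the inhibin and activin subunits, *INHA* (chromosome 2, 219569162 to 219575711, plus strand), the alpha chain that only inhibin contains, had normalised counts of 47.5, 38.7 and 39.4 in Control and 37.0, 35.7 and 41.8 in BRG1. The ranges overlapped, and the log2 fold change was -0.14 (SE 0.38, 95% interval -0.88 to 0.60, DESeq2 adjusted p = 0.923). The interval reaches past a change of 0.5 on the log2 scale in either direction, so a modest change cannot be told from none. *OBSL1*, on the opposite strand, overlaps the span of *INHA* but shares no exon base with it, and its part was not tested.

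*INHBA* (chromosome 7, 41667168 to 41705834, minus strand), the beta A chain found in both inhibin A and activin A, rose. Its normalised counts were 108.4, 104.4 and 62.1 in Control and 1142.5, 761.7 and 198.5 in BRG1. Every BRG1 sample was above every Control sample, and BRG1 sample 3, the shallowest library, was the lowest of its group by a wide margin. The fitted fold was 7.68 (95% interval 3.73 to 15.8), a log2 fold change of 2.94 (SE 0.53, DESeq2 adjusted p = 6.2e-07). Replicate by replicate, the BRG1 sample was 10.5, 7.30 and 3.20 times its Control. The edgeR adjusted p was 0.0161, and limma-voom, with an adjusted p of 0.0507, did not call it. *SMARCA4* was 75.5, 47.2 and 51.1 times its Control in the same order. The part of depth or of BRG1 dose in the smaller rise of replicate 3 was not tested. An antisense gene, *INHBA-AS1*, covers 2.99% of the *INHBA* exon bases, and since strand was not kept its reads cannot be told from those of *INHBA* there.

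*CYP19A1* (chromosome 15, 51208057 to 51338601, minus strand), aromatase, had the largest change of the 6 genes tested. Its normalised counts were 15.8, 22.3 and 31.8 in Control and 454.8, 259.2 and 250.7 in BRG1. The lowest BRG1 value was well above the highest Control value. The fitted fold was 13.6 (95% interval 7.95 to 23.2), a log2 fold change of 3.76 (SE 0.39, DESeq2 adjusted p = 8.7e-20, edgeR adjusted p = 0.000718, limma-voom adjusted p = 0.00187). Replicate by replicate, the BRG1 sample was 28.7, 11.6 and 7.89 times its Control. Leaving out each sample in turn gave log2 fold changes of 3.42 to 4.08, called each time. In the BRG1 samples the gene still lay at percentile 44.7 of all genes by level, below their median.

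*STAR* (chromosome 8, 38142700 to 38150992, minus strand), the cholesterol carrier, had normalised counts of 2.4, 8.2 and 4.5 in Control and 5.8, 5.0 and 0 in BRG1. These are a handful of reads per library. The log2 fold change was -0.42 with a 95% interval of -3.01 to 2.16 (DESeq2 adjusted p = 0.932), and its sign turned when Control sample 2 or BRG1 sample 3 was left out. *ASH2L*, on the opposite strand, shares 338 bases or 7.61% of the *STAR* exon bases. With a mean normalised count of 2291 ± 170 in Control it was abundant, and without strand reads over the shared bases cannot be told apart.

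**Figure D3:**
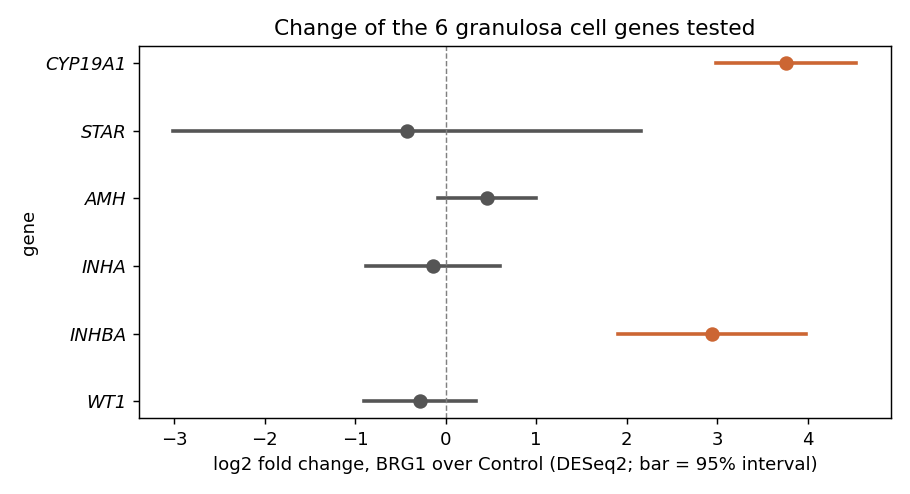
Log2 fold change of BRG1 over Control for the 6 genes tested by DESeq2, with bars giving the 95% interval and orange marking an adjusted p under 0.05. *CYP19A1* (3.76) and *INHBA* (2.94) lie wholly above 0, the intervals of *AMH*, *INHA* and *WT1* cross 0, and that of *STAR* spans more than 5 units.

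Because inhibin and activin differ only in which chains pair, the levels of the subunits were set side by side per length. In Control the level of *INHBA* was 0.511, 0.603 and 0.354 times that of *INHA*, and in BRG1 samples it was 6.91, 4.77 and 1.06 times. *INHA* RNA was thus the higher in all Control samples and *INHBA* RNA in BRG1 samples 1 and 2. In BRG1 sample 3 the order depends on the length used, since with the union of all exons as length the ratio was 0.939 there, 6.11 and 4.21 in BRG1 samples 1 and 2, and 0.312 to 0.533 in Control. For *INHBB*, the beta B chain, the ratio to *INHA* was 0.162, 0.115 and 0.138 in Control and 2.81, 1.98 and 1.16 in BRG1. These are RNA levels on an approximate length scale, and protein was not measured here.

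**Figure D4:**
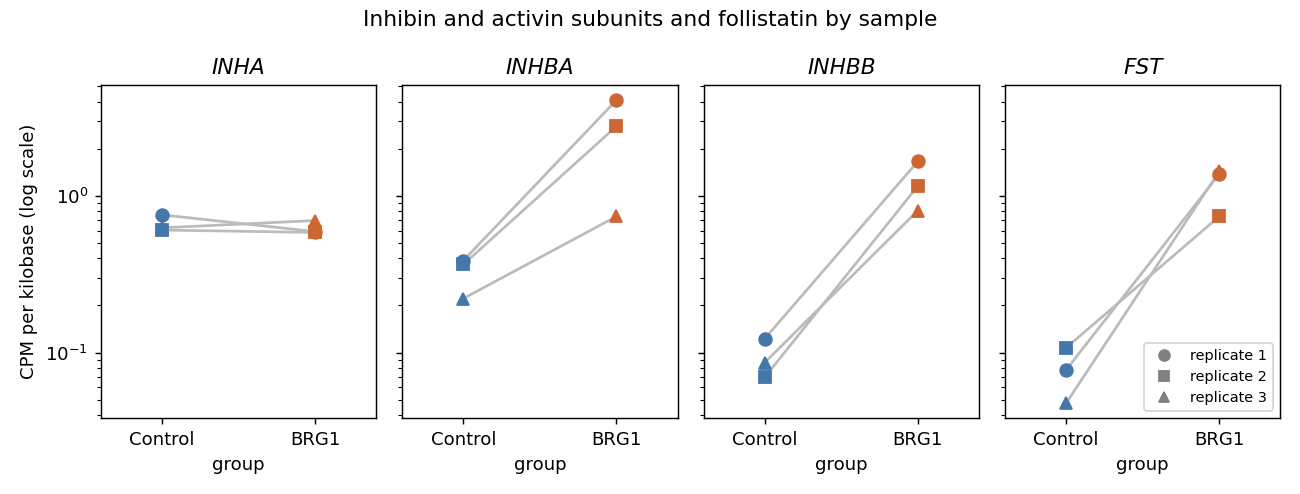
Level (CPM per kilobase, log axis) of *INHA*, *INHBA*, *INHBB* and *FST* in each sample, with lines joining Control and BRG1 samples of the same replicate number. *INHA* stays between 0.585 and 0.758 in all 6 samples, while *INHBA*, *INHBB* and *FST* are higher in BRG1 within each replicate number.

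A list of 21 other genes of activin, inhibin and AMH signalling was examined next. DESeq2 and edgeR each called 4 of them higher and 0 lower. Over all genes tested, DESeq2 called 11.0% higher and 1.84% lower, and edgeR 9.57% and 1.02%. The median log2 fold change over the list was 0.17 against -0.01 over all genes tested. The 4 were *INHBB*, *FST*, *FSTL3* and *SMAD3*. *INHBB* had normalised counts of 18.3, 10.6 and 12.9 in Control and 245.9, 167.8 and 114.9 in BRG1 (log2 fold change 3.68, SE 0.45, DESeq2 adjusted p = 7.7e-15). *FST*, encoding follistatin, which binds and neutralises activin, had 8.5, 11.7 and 5.3 in Control and 146.5, 77.3 and 146.3 in BRG1 (log2 fold change 3.89, SE 0.51, DESeq2 adjusted p = 1.3e-12). For both genes every BRG1 sample lay above every Control sample. *SMAD3*, which carries the activin signal to the nucleus, went from 511 ± 61 to 3524 ± 1857 normalised counts (SD, n = 3; log2 fold change 2.79), and *FSTL3*, a second activin antagonist, from 348 ± 94 to 1196 ± 350 (log2 fold change 1.78). A ligand chain, its antagonists and a signal carrier were therefore higher in the same samples. The receptors were not called. *ACVR2A* had 363 and 422 mean normalised counts, *ACVR1B* 1463 and 1405, and *BMPR1A*, a receptor that works with AMHR2, 2636 and 2396. With the replicate block DESeq2 called 5 higher, against 13.4% of all genes it tested. The added gene was *TGFBR3*, betaglycan, the inhibin co-receptor (log2 fold change 0.58, DESeq2 block adjusted p = 0.0250). Without the block its log2 fold change was 0.60 (DESeq2 adjusted p = 0.120). It was also called by edgeR with the block (adjusted p = 0.0476) and by DESeq2 without BRG1 sample 3 (adjusted p = 0.0286).

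The 19 steroidogenic enzymes and carriers reported here held 4 genes that DESeq2 called higher and 0 that it called lower, while edgeR called 3 higher and 0 lower. Over all genes tested the shares were 11.0% and 1.84% by DESeq2 and 9.57% and 1.02% by edgeR. The median log2 fold change of the list was -0.02. *HSD3B1*, which converts pregnenolone to progesterone, had normalised counts of 7.31, 3.52 and 9.09 in Control and 8288, 4905 and 2063 in BRG1, a log2 fold change of 9.54 (SE 0.55, DESeq2 adjusted p = 1.8e-64). *HSD3B2*, its gonadal and adrenal counterpart, had 39.0, 32.8 and 33.3 in Control and 665.2, 673.7 and 509.0 in BRG1, a log2 fold change of 4.14 (SE 0.25, DESeq2 adjusted p = 3.8e-57). Because these 2 genes are near-identical, how salmon split the reads between them is uncertain. The same holds for *AKR1C3*, which reduces androstenedione to testosterone and has close relatives (34.1 ± 5.3 to 788 ± 428, log2 fold change 4.54). *CYP11A1*, which makes the first cut of cholesterol, was at 0 in all Control samples and at 10.9, 5.0 and 6.0 normalised counts in BRG1, at least 2.31-fold higher against a floor of 3 counts per library. Its DESeq2 adjusted p of 0.0333 became 0.117 with the block and 0.0740 to 0.453 when any 1 sample was left out, and edgeR did not test it. *CYP17A1*, which makes androgens, stayed at a few counts (means of 2.38 and 2.79, DESeq2 adjusted p = 0.967). *STARD3* and *SCARB1*, which handle cholesterol, were abundant and not called without the block, with log2 fold changes of 0.07 and 0.33. Blocked by replicate number in DESeq2, the list had 4 genes higher and 1 lower, against 13.4% and 6.62% of all genes tested. *SCARB1*, a receptor that takes up cholesterol, was then called higher by DESeq2 (block adjusted p = 0.0372) but not by edgeR with the block (adjusted p = 0.0682). *FDXR*, which supplies electrons to the mitochondrial P450 enzymes, was called lower with the block by DESeq2 (log2 fold change -0.42, adjusted p = 0.00224, 0.120 without the block) and by edgeR (adjusted p = 0.0187). Its BRG1 samples were 0.747, 0.669 and 0.833 times their Controls. Without BRG1 sample 3, *FDXR* was called lower also in the fit without the block (log2 fold change -0.55).

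Of the 21 other gonadal transcription factors reported here, DESeq2 tested 19 and called 5 higher and 0 lower, while edgeR called 5 higher and 0 lower. Over all genes tested the shares were 11.0% and 1.84% by DESeq2 and 9.57% and 1.02% by edgeR. The median log2 fold change of the list was 0.16. *GATA6*, a zinc finger factor of gonadal somatic cells, had normalised counts of 32.9, 10.6 and 17.4 in Control and 1045, 802.4 and 164.2 in BRG1 (log2 fold change 5.05, SE 0.62, DESeq2 adjusted p = 1.1e-14). As with *INHBA*, BRG1 sample 3 was the lowest of its group and still above every Control sample. *FOXO1*, a forkhead factor active in granulosa cells, rose from 137 ± 48 to 1018 ± 552 (log2 fold change 2.90). *EMX2* was at the floor in Control after rounding, 28.7 ± 15.9 in BRG1 and at least 9.13-fold higher, with an adjusted p of 0.0637 once BRG1 sample 1 was left out. *CITED2* (log2 fold change 2.68) and *RUNX1* (2.32) were the others called. The *RUNX1* call was lost without BRG1 sample 2 (DESeq2 adjusted p = 0.0538). *NR5A2* (LRH-1), the close relative of NR5A1, was abundant, with 7916, 7707 and 6886 normalised counts in Control and 5531, 6554 and 6166 in BRG1. Those ranges did not overlap, but the log2 fold change of -0.30 was not called without the block (DESeq2 adjusted p = 0.162). With the block it was called by DESeq2 (adjusted p = 0.0368) but not by edgeR (adjusted p = 0.0693). *GATA4* had a mean of 5.87 and 4.10 and was not called. With the block in DESeq2 the list had 7 genes higher and 2 lower, against 13.4% and 6.62% of all genes tested. The added genes were *NR4A1* and *CEBPB* (higher) and *NR5A2* and *ESR2* (lower). With the block edgeR called 6 higher and 1 lower, leaving out *CEBPB* (edgeR adjusted p = 0.0623) and *NR5A2*. *ESR2* was also called lower when BRG1 sample 3 was left out of the fit without the block (log2 fold change -0.76).

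**Figure D5:**
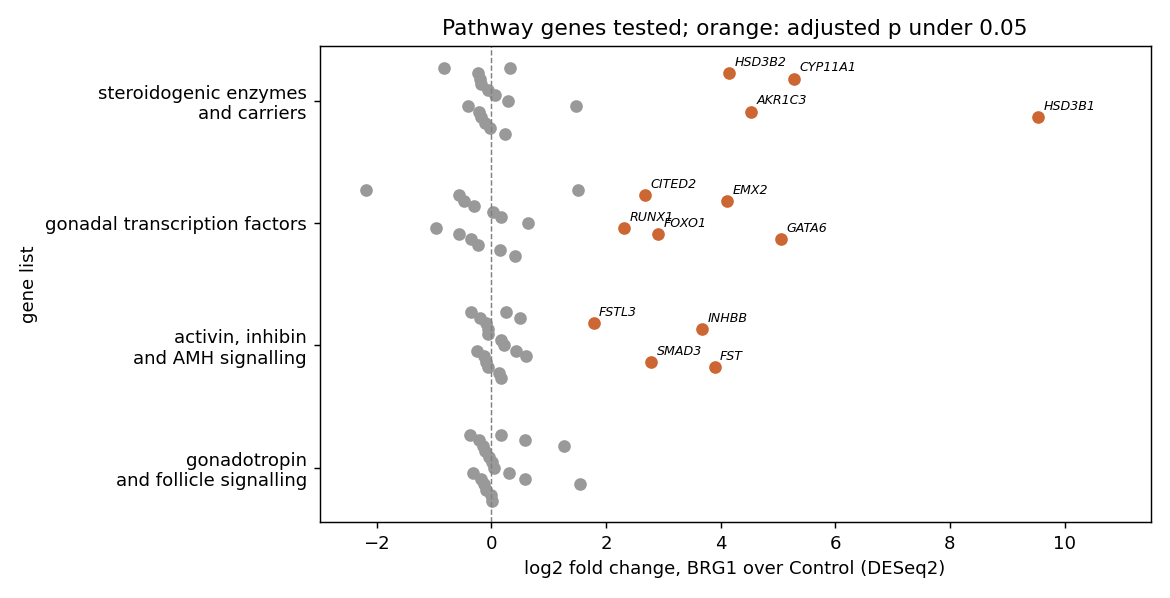
Log2 fold change of BRG1 over Control for each gene tested in the 4 pathway lists, with orange and a name for genes at a DESeq2 adjusted p under 0.05. The upper 3 lists hold 4, 5 and 4 coloured genes, all well right of 0, and the gonadotropin and follicle list holds 0, while *CYP11A1* and *EMX2*, at the floor in Control, stand at fitted values that are no bound.

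The 20 genes of gonadotropin and follicle signalling gave 0 calls in either direction by DESeq2 and by edgeR. At an unadjusted p under 0.05, DESeq2 had 2 higher and 0 lower, and the share of all genes at that threshold was not counted. *LHCGR*, the luteinising hormone receptor, was at the floor in both groups. *GNAS*, which couples both gonadotropin receptors to cAMP, had mean normalised counts of 35363 and 31294, and *GJA1*, the main gap junction gene between granulosa cells, 17703 and 16486 (log2 fold changes of -0.18 and -0.10). *KITLG*, a granulosa signal to the oocyte, had 666 and 670. *IGF1R* was called higher when Control sample 1 or BRG1 sample 3 was left out, with log2 fold changes of 1.92 and 1.64, and *PDE4D* was called lower without Control sample 3 (-0.54). With the block in DESeq2 the list had 1 gene higher, *IGF1R*, and 2 lower, *PDE4D* and *INSR*, against 13.4% and 6.62% of all genes tested.

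Markers of other cells of the gonad were counted in the same way, against 11.0% called higher and 1.84% lower over all genes DESeq2 tested. Of 12 Sertoli cell markers, 8 of them tested, 2 were called higher and 0 lower. *SOX9*, the factor that directs the Sertoli fate, had 56.0, 34.0 and 14.4 normalised counts in Control and 4211, 2414 and 1072 in BRG1 (log2 fold change 6.22, SE 0.53, DESeq2 adjusted p = 5.5e-30), and *CLDN11* went from 2.46 ± 1.31 to 23.6 ± 4.9, a call lost without BRG1 sample 1 (DESeq2 adjusted p = 0.0560). *DMRT1*, another defining Sertoli gene, was at 0 in all BRG1 samples. Of 9 theca and stroma markers *PDGFRA* was called higher (log2 fold change 3.40) and *PTCH1* lower (-0.62, edgeR adjusted p = 0.0911, and lost without any of 5 samples). Of 12 germ cell markers, 5 of them tested, DESeq2 called *BMP15* higher, at least 3.14-fold from 0 in Control, a call lost without BRG1 sample 1 or 2. The edgeR test called 0 genes of this list, and *DAZL*, *FIGLA* and *NOBOX* were at 0 in all samples.

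The last list was drawn up as markers of the ovarian surface epithelium. Its keratins, *CDH1* and *EPCAM* are in the paper markers of epithelial cells in general. A rise in this list therefore does not single out the ovarian surface epithelium. Of the 11 genes listed, DESeq2 tested 9 and called 7 higher and 0 lower, against 11.0% and 1.84% of all genes tested. The edgeR test called 6 higher, against 9.57%. Their summed level ranged from 6.35 to 11.0 CPM per kilobase in Control and from 29.2 to 61.4 in BRG1. *MUC16* (CA-125) was at 0 in all Control samples and at 141.4, 140.4 and 116.4 normalised counts in BRG1, at least 42.2-fold higher. *KRT8* went from 23.8 ± 7.6 to 861 ± 502 (log2 fold change 5.20) and *KRT7* was at least 33.3-fold higher over its near-absent Control values. *EPCAM* and *KRT19* were at or near 0 in all samples and *CDH1* was not called (means of 21.6 ± 31.0 and 21.1). The summed level of the Sertoli markers was 19.9 to 21.5 in Control and 25.9 to 43.9 in BRG1. The summed theca and stroma and germ cell levels overlapped between the groups. The part of any of these in the rise of *CYP19A1* and *INHBA* was not tested.

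As a description of pattern, the log2 normalised count of each called gene was correlated with that of 11685 other genes over the 6 samples, 3 per group. The values most like *CYP19A1* were those of *DRP2*, *C1S* and *ZDHHC22* (Pearson's r of 0.997 each). Those most like *INHBA* were *EZR* (0.999), *MTMR10* (0.998) and *ARHGEF3* (0.998). The 6 points fall into 2 groups and share libraries and depth, so any gene that differs by group scores high.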

How the data were processed

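RNA was measured in 3 Control and 3 BRG1 samples of COV434, grouped by the labels. TruSeq mRNA libraries from 500 ng of RNA, without strand, were sequenced as 78 bp read pairs. The authors aligned reads to hg38 with the STAR aligner (2.5.3a), quantified GENCODE v24 transcripts with salmon (0.8.2) and deposited estimated counts per gene symbol scaled by transcript length (lengthScaledTPM), not divided by library size. Salmon shares out reads that fit several genes, so near-identical and overlapping genes are uncertain.

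The estimated counts were rounded, and all genes with a count in any sample (18096) were fitted with DESeq2 (1.42.0, R 4.3.3; Wald test, no covariate, median-ratio size factors, independent filtering), as in the study's methods. A call is a Benjamini-Hochberg adjusted p under 0.05. Normalised counts are counts divided by size factors. Alternatives were edgeR (4.0.16) quasi-likelihood and limma-voom (3.58.1) with TMM, TMM factors in DESeq2, a filter of at least 10 counts in 3 samples, no independent filtering, the replicate block, each sample left out, and adjusted p under 0.01. Deviations from group means correlated at 0.522 to 0.614 between same-numbered samples and at -0.523 to 0.073 between others. The numbers were therefore taken as pairs, which the labels do not state. P-values measure the spread between these replicates of 1 line. A group with 3 rounded counts or fewer in every sample was at the floor. Lengths and positions are from GENCODE 44 (GRCh38).

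Tested on simulated data in which 2000 genes differed by a log2 fold of 2, DESeq2 recovered 99.0% with 7.90% false calls over 17436 genes, and edgeR 98.0% with 3.83% over 14259. With 200 changed genes the false shares were 28.2% and 8.53%, so edgeR is given beside DESeq2. The changed genes were drawn from well-expressed genes only, and samples were simulated without pairing. The recovery therefore does not cover low genes such as *INHA* and *STAR*.

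The genes and lists were chosen with earlier results of these data known. Named list genes were the called genes with the largest change (mean of at least 10, at most 3 each way), and for likeness the 3 best genes with a mean of at least 100. Other list genes were named after their values were seen. 1 gene each of the lists of gonadal transcription factors and steroidogenic genes is not reported here.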

Additional observations from a re-analysis of the deposited data

How the results depend on the processing

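The calls of *CYP19A1* and *INHBA* held under 13 alternatives each, apart from *INHBA* in limma-voom (log2 fold change 2.86), where 1 gene of the 10 was called higher. The replicate block gave log2 fold changes of 3.74 and 2.67 and changed no call of the 10. With 1 sample left out, *AMH* ran from 0.30 to 0.74 (called without Control sample 3), *STAR* from -0.93 to 0.10 (0.07 without Control sample 2 and 0.10 without BRG1 sample 3, against -0.42), and *WT1* from -0.47 to 0.0021 (without BRG1 sample 1, against -0.28). Of all genes, 294 were called lower, against 146 by edgeR, 169 by limma-voom, 1035 with the DESeq2 block, 809 with the edgeR block, 130 at an adjusted p under 0.01 and 117 to 596 with 1 sample left out. Genes of the 4 pathway lists called lower were 0, against 5 and 4 with the DESeq2 and edgeR blocks and 0 to 2 with 1 sample left out. The cause was not tested. With the union of exons as length, levels in Control and BRG1 were 0.0590 and 0.841 for *CYP19A1*, 0.548 and 0.516 for *INHA*, and 20.4 and 17.4 for *WT1*, and *AMH* had 3.49 in BRG1, because the union is longer. Depth limits *FOXL2*, *FSHR*, *AMHR2*, *NR5A1* and *STAR*.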
